A study of Mus musculus with 2 samples.

Results

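The Notch pathway and Hes gene set holds 10 of 21938 protein-coding genes of the mouse annotation: the receptors Notch1, Notch2 and Notch3, the ligands Dll1, Dll3 and Jag1, and the targets Hes1, Hes5, Hes6 and Hey1. The genes were named by symbol, and their open chromatin was collected by position, as peaks and hotspots within 1 kb (promoter) or within 50 kb (distal) of a transcription start site of the GENCODE M21 basic set. Each of the 10 genes has 1 such start site. DNase-seq, which marks stretches of chromatin open enough for DNase I to cut, was run on hindbrain tissue of B6NCrl mouse embryos at embryonic day 14.5, healthy and with no treatment or altered gene named in the labels. Both sexes were pooled, and 1 group of 2 biological replicates was made, each a tissue sample and a library of its own. The labels give both samples the same donor identifier and do not say whether they came from separate litters, so differences between them may be technical. There is no second tissue, stage or treatment, and whole tissue mixes cell types, so a site that is weakly open and a site that is open in few of the cells cannot be told apart.

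Notch signalling passes between touching cells: a Delta or Jagged ligand on one cell pulls on a Notch receptor on its neighbour, the receptor is cut by ADAM proteases and γ-secretase, and the freed intracellular domain enters the nucleus. There it joins the DNA-binding protein RBPJ and a Mastermind co-activator and switches on genes of the Hes and Hey families, which encode repressors of the proneural genes. In the embryonic neural tube this keeps some cells as progenitors while their neighbours, which make the ligand, become neurons.

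RBPJ binds sequences around TGGGAA, and the letters of the open sites near the members were searched for it. The 6 peaks printed here carry its longest forms near the start sites or in distal peaks: CGTGGGAA in 4 of them, GTGGGAA in the Hes5 promoter peak, and in the Hes1 promoter peak a pair of sites that face each other. Sequences are the mm10 (GRCm38) plus strand, 5′ to 3′, over the 150 bp of the replicate 1 peak. Capitals mark the match, which reads TTCCCACG or TTCCCAC where it lies on the minus strand, and distances run from the gene's start site to the middle of the peak.
Notch1, 1391 bp downstream, chr2:26502356-26502505: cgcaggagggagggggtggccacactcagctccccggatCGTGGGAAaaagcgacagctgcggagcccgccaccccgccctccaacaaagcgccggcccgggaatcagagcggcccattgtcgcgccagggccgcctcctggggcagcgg
Notch3, 4561 bp downstream, chr17:32162216-32162365: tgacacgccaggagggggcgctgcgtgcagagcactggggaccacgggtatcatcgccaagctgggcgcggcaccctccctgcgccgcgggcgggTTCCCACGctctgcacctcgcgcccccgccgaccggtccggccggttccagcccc
Hes1, 109 bp upstream, chr16:30065156-30065305: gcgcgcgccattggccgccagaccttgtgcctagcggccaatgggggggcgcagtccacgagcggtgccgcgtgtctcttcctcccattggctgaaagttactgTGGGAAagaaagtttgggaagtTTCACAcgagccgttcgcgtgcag
Hes1, 991 bp downstream, chr16:30066256-30066405: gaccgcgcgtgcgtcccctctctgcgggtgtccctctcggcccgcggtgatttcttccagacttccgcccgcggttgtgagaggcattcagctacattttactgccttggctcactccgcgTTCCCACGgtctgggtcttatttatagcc
Hes5, 152 bp upstream, chr4:154960696-154960845: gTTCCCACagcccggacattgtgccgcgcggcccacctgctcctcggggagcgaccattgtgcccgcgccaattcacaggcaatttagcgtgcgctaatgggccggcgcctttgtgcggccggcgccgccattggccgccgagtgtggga
Hes5, 14372 bp upstream, chr4:154946476-154946625: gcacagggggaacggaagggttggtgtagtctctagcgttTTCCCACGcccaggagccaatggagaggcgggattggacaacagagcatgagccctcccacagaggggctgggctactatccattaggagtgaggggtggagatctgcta

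The authors deposited 263932 peaks for replicate 1 and 149107 for replicate 2. On the assembled chromosomes the ratio was 1.77. Each peak is 150 bp wide and has a score, a whole number from 2 to 150 in replicate 1 and from 1 to 145 in replicate 2, with medians of 47 and 30. What the score counts is not given in the sources used here, so scores are read by rank, as the score percentile within the same library, with tied peaks at their middle rank. A peak is called shared where at least 1 bp overlaps a peak of the other library. Of the peaks of replicate 1, 42.4% were shared, against 77.1% of those of replicate 2. All 8 genes of hindbrain position, 5 of 5 neural progenitor markers and 5 of 5 neuron markers had a shared promoter peak, as did 2 of 5 genes of forebrain position, 2 of 6 endothelial, 3 of 6 pericyte and smooth muscle, 2 of 6 microglial, 1 of 5 erythroid and 1 of 4 liver markers. Of the endothelial markers, Kdr and Cldn5 had a shared promoter peak, Tek and Tie1 had one in replicate 1 alone, and Cdh5 and Pecam1 had 0. Of the pericyte and smooth muscle markers, Pdgfrb, Anpep and Kcnj8 had a shared one, Rgs5 and Cspg4 had one in replicate 1 alone, and Acta2 had 0. Of the forebrain genes, Emx1 had 3 promoter peaks in replicate 1 and 6 in replicate 2, Lhx2 had 1 in each library, and Six3 and Nkx2-1 had 0. Of the liver markers, Ttr had the shared one, with 1 promoter peak in replicate 1 and 0 in replicate 2. The replicate 2 peak that overlapped it had its middle outside the promoter window. The part of tissue composition in the results on the members was not tested.

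All 10 members had an open promoter in both libraries. Each had at least 1 shared promoter peak, as did 64.6% of protein-coding genes (69.9% had a promoter peak in replicate 1 and 65.7% in replicate 2), and each had a promoter hotspot, a wider region of enriched cutting, in both libraries, as did 65.5% of genes. The members' promoter windows held 24 peaks and 16 hotspots in replicate 1 and 30 peaks and 24 hotspots in replicate 2, and 21 of the replicate 1 peaks were shared. More than 1 shared promoter peak was found at 7 of the 10 members, against 39.7% of genes. The hotspots carry a −log10 q-value that runs up to 6 or stands at a cap of 100. At 8 of the members, against 55.8% of genes, a promoter hotspot stood at the cap in both libraries. Notch1 and Hes5 were the exceptions, with 6 as their highest value in replicate 2.

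**Figure D1:**
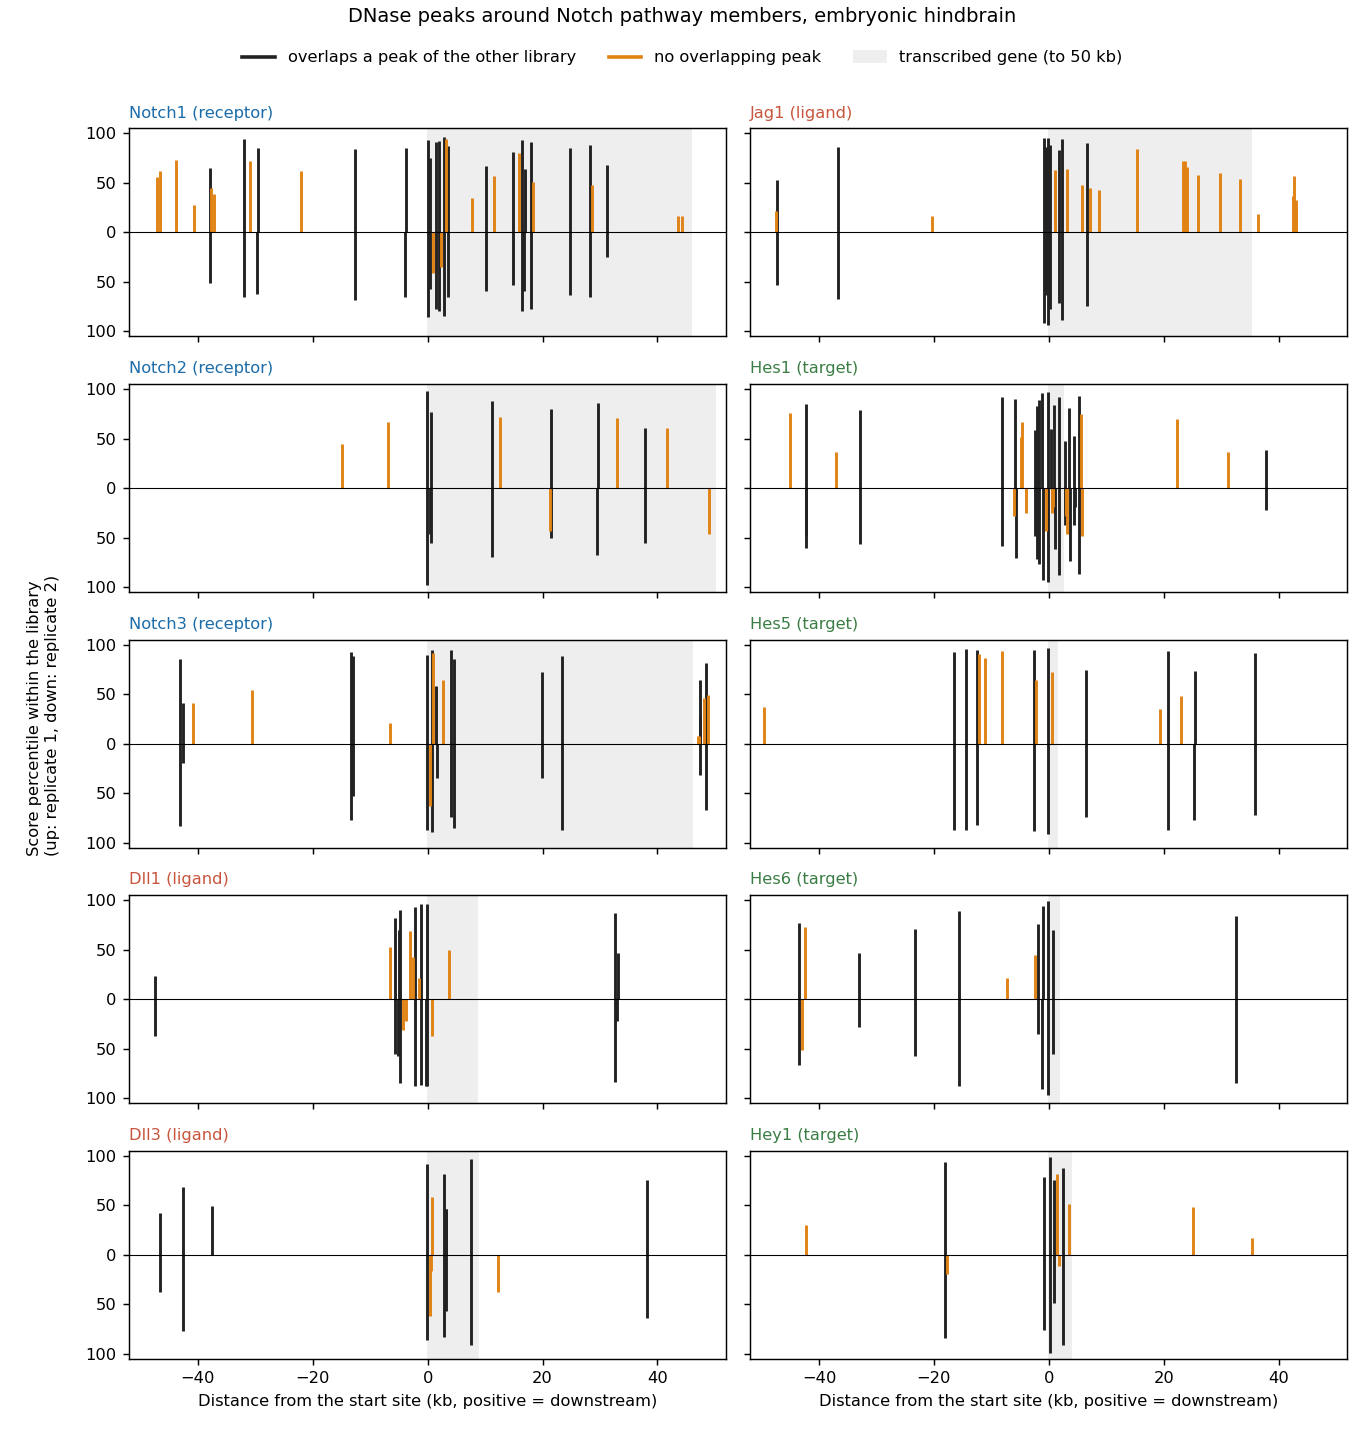
Peaks within 50 kb of the start site of each member, by distance from the start site in kb (horizontal axis, positive downstream) and score percentile (vertical axis, replicate 1 upward, replicate 2 downward). Black bars overlap a peak of the other library, orange bars do not, and grey marks the transcribed gene. Shared peaks crowd around Hes1 (11 of 14 distal ones within 10 kb), and Jag1 has 18 orange distal bars in replicate 1.

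Each receptor had 2 shared promoter peaks. Notch2, which like Notch1 is made by neural progenitors, had the strongest of them, a peak 87 bp upstream of the start site with a score of 136 in replicate 1 and 110 in replicate 2 (score percentiles 98.0 and 97.6). Notch1, the receptor most studied in neural progenitors, had its strongest promoter peak 9 bp upstream, with scores of 111 and 64 (93.9 and 85.1). A second Notch1 peak 331 bp inside the gene, in an intron, scored 70 and 33. Notch3, the receptor best known from the muscle cells of small arteries, had its strongest promoter peak 741 bp inside the gene, with scores of 113 and 74 (94.3 and 89.2), above the peak 59 bp upstream, with 96 and 68. The 3 receptors thus had the same number of shared promoter peaks, and Notch2 ranked highest in both libraries.

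The ligands had from 1 to 4 shared promoter peaks. Jag1, the Jagged ligand, had 4 shared promoter peaks, the most of any member. The peak 147 bp upstream of Jag1 scored 119 and 89 (95.4 and 93.6), and one 907 bp upstream scored 120 and 82. At Dll1, the Delta ligand that activates Notch in the neural tube, 1 peak of replicate 1, 135 bp upstream, with a score of 125 (96.3), met 2 peaks of replicate 2, which lay 55 and 255 bp upstream and scored 70 and 69 (87.7 and 87.3). Since they straddle it, Dll1 loses its shared promoter peak where an overlap of at least 0.5 of each peak is asked for, and the count of members falls to 9. Dll3, the divergent ligand that stays mostly inside the cell and does not activate Notch on its neighbour, had 1 shared promoter peak, 73 bp upstream, with scores of 104 and 66 (92.1 and 86.0).

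The highest rank in both libraries was at a target. Hey1, a repressor of the Hairy-related family, had a peak 145 bp inside the gene, over an exon, with scores of 142 and 117 (99.1 and 98.9). Hes6, an atypical Hes protein that counteracts Hes1 and favours differentiation, had a peak 69 bp upstream with scores of 142 and 105 (99.1 and 96.7). At Hes1, the repressor that holds progenitors undifferentiated, the printed peak 109 bp upstream scored 130 and 94 (97.1 and 94.6). The printed peak inside Hes1, 991 bp downstream of the start site, was weaker, with scores of 83 and 36. Hes5, a Notch target made by neural progenitors, had a single shared promoter peak, 152 bp upstream, with scores of 124 and 81 (96.1 and 91.6). Together the 21 shared promoter peaks had median score percentiles of 92.1 and 86.0, against 89.0 and 79.0 for all 30691 shared promoter peaks. By role the medians were 91.6 and 86.0 for the 6 receptor peaks, 93.7 and 86.8 for the 6 ligand peaks and 83.5 and 76.1 for the 9 target peaks, which include the weaker peaks inside Hes1, Hes6 and Hey1.

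**Figure D2:**
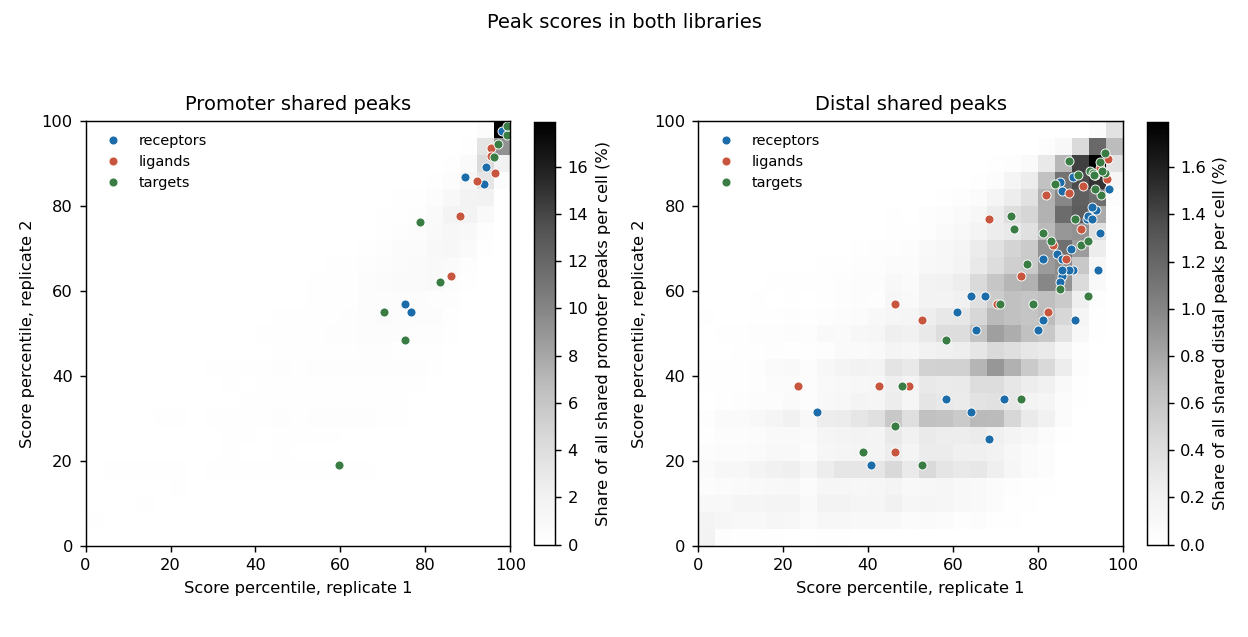
Score percentile of each shared peak of the 10 members in replicate 1 (horizontal axis) and replicate 2 (vertical axis), coloured by role, over the share of all shared peaks in each cell of the grid (grey). The highest promoter point is Hey1 at 99.1 and 98.9, followed in replicate 2 by Notch2 at 98.0 and 97.6.

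Among the hotspots within 1 kb of the start sites, those of Hes6 and Dll1 were the longest. The longest promoter hotspot of Hes6 spanned 3043 bp in replicate 1 and 2052 bp in replicate 2 (percentiles 98.8 and 98.1 among all protein-coding genes, those without one counted as the shortest), and that of Dll1 2624 and 1978 bp (97.5 and 97.7). The lengths were 2125 and 1720 bp at Hey1 and 1640 and 1482 bp at Jag1. The shortest in replicate 1 was that of Dll3, with 800 and 762 bp, below the medians over genes with a promoter hotspot of 1186 and 857 bp. At Hes1 they were 2267 and 891 bp, next after Dll1 in replicate 1 and close to the gene median in replicate 2. These 2 lengths are not of the same region. The 2267 bp hotspot ends upstream of the Hes1 start site, and the hotspot over that site spanned 772 bp in replicate 1 and 891 bp in replicate 2. The longest promoter hotspots spanned 1153 and 517 bp in Notch1, 1056 and 701 bp in Notch2, 1308 and 1206 bp in Notch3, and 1573 and 692 bp in Hes5. Those of Notch3 lie inside the gene and do not cover its start site, where the hotspots spanned 458 and 368 bp.

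**Figure D3:**
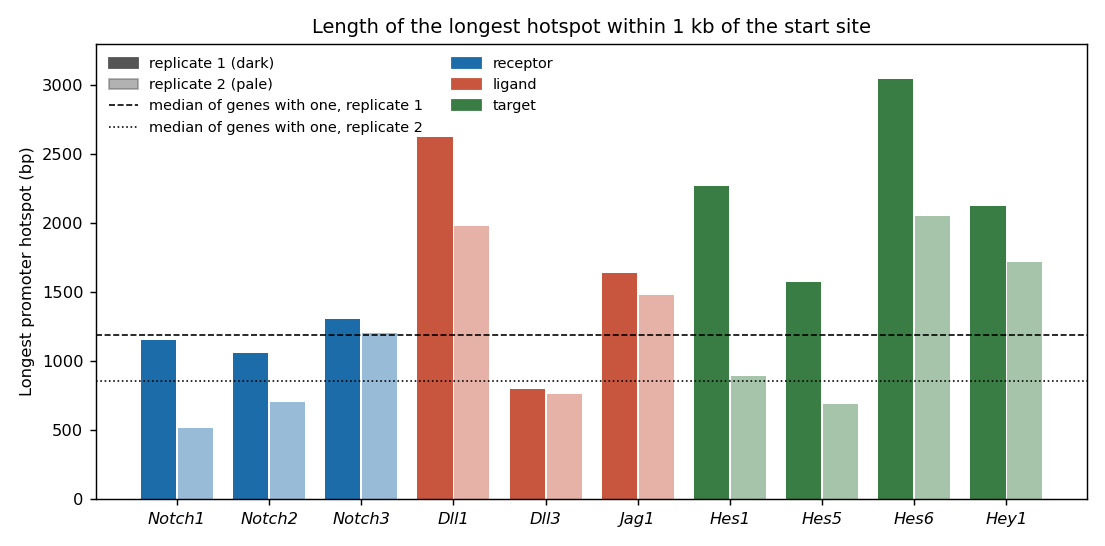
Length in bp of the longest promoter hotspot of each member in replicate 1 and replicate 2, with dashed and dotted lines at the medians over protein-coding genes that have one (1186 and 857 bp). Hes6 and Dll1 have the longest in both libraries.

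Away from the start sites the members held 159 distal peaks and 129 distal hotspots in replicate 1 and 99 and 91 in replicate 2. A distal peak lies more than 1 kb from every basic start site of any gene, and 85 of the replicate 1 peaks were shared. Counts of shared peaks per gene are of replicate 1 peaks. More than 1 of them can overlap the same replicate 2 peak, so the shared count can exceed the replicate 2 count, as at Dll3 and Notch3. Members had a median of 8 distal shared peaks, against 3 over all protein-coding genes, whose quartiles were 1 and 6. All 10 members had at least 1, as did 82.7% of genes; 9 had more than the median gene, as did 48.1%; and 7 had more than 6, as did 22.1%. Counting all peaks of replicate 1 instead, the median was 14, against 8 over all genes, and with all peaks of replicate 2 it was 8, against 4.

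Receptors had a median of 12 distal shared peaks with a range from 4 to 17, ligands 8 with a range from 5 to 8, and targets 7.5 with a range from 2 to 14. These ranges overlap, and the receptors and the targets each spanned a wider range than the medians of the roles. Around Notch1 lay 33 distal peaks of replicate 1 and 18 of replicate 2, of which 17 were shared, and 1.10% of genes had as many or more. Hes1 followed with 21 and 22 peaks and 14 shared, which 2.47% of genes reached. Notch3 had 20 and 11 with 12 shared, reached by 4.66% of genes. Dll1, Dll3 and Hes5 each had 8 shared peaks (16.4% of genes), from 13 and 10, 8 and 7, and 15 and 8 peaks. Hes6 had 7 shared of 10 and 8 peaks, Jag1 5 of 23 and 5, Notch2 4 of 9 and 6, and Hey1 2 of 7 and 4. The count of Hey1, which 71.3% of genes reached, was the only one below the median gene.

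**Figure D4:**
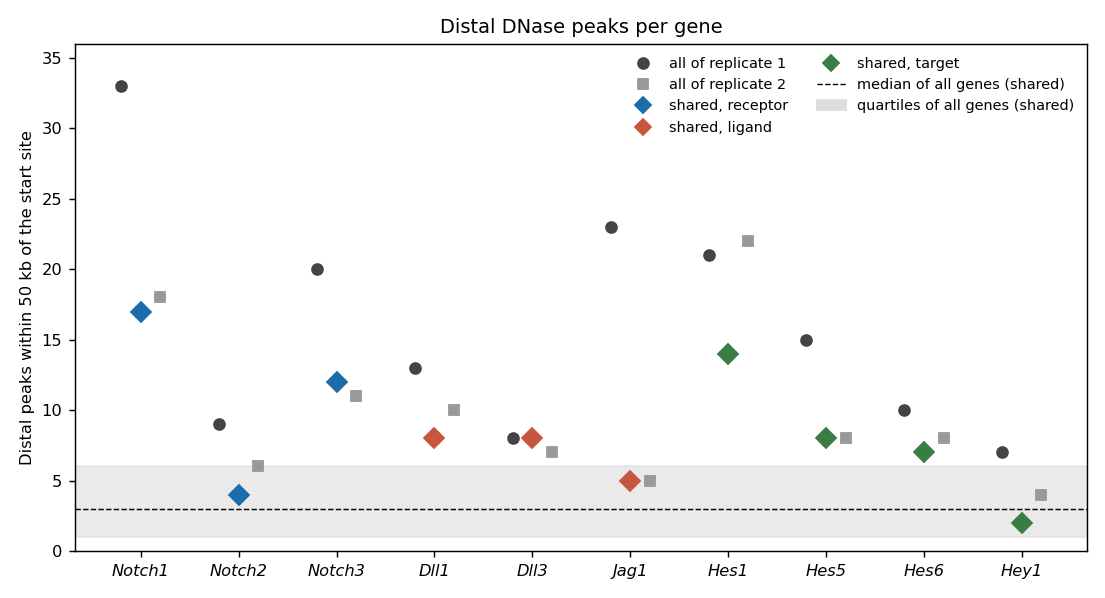
Number of distal peaks within 50 kb of each member in replicate 1, in replicate 2 and shared by both (coloured by role), with the median and quartiles of the shared count over all protein-coding genes (dashed line and grey band). Notch1 has the most shared peaks (17) and Hey1 the fewest (2), and Jag1 shows the widest gap between the libraries (23 and 5).

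The distal shared peaks were placed differently around different members. Of the 85, 36 lay within 10 kb of the start site, 39 upstream and 46 downstream of it, 29 inside the member's own transcript, 19 inside another gene's transcript and 37 between transcripts. No such counts were taken over all genes, so whether this placement differs from that at other genes is not known. At Notch1, 12 of 17 lay inside its own transcript, in introns. The strongest distal peak of each gene is given here by the mean of its score percentiles in both libraries. That of Notch1 lay 2851 bp downstream of the start site, in an intron, at chr2:26500896-26501045, with scores of 128 and 62 (96.8 and 84.1). The 12 peaks of Notch3 divided into 5 in its own transcript, 5 in other genes' transcripts and 2 between transcripts. The strongest by that mean, at chr17:32143316-32143465, overlapped an exon of Notch3 23461 bp downstream and scored 93 and 68 (88.2 and 86.9), while in replicate 1 peaks 4141 bp downstream (114) and 13359 bp upstream (106) scored higher. For all 4 peaks of Notch2 the nearest start site was that of Gm42819, not of Notch2. The strongest of them lay 11133 bp downstream, in an intron, at chr3:98024596-98024745, and scored 92 and 42 (87.8 and 69.8).

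At Dll1, 5 of 8 distal shared peaks lay within 10 kb, all of them upstream. The strongest lay 1095 bp upstream, at chr17:15376996-15377145, and scored 124 and 67, and a peak 2155 bp upstream scored 109 and 69. Both overlap exons of the long noncoding RNA gene A930024N18Rik, whose start site lies 976 bp from that of Dll1. The strongest distal peak of Dll3, 7527 bp downstream at chr7:28294636-28294785, overlapped a Dll3 exon and scored 126 and 79 (96.5 and 91.0). Jag1 had its strongest in an intron 2293 bp downstream, at chr2:137114276-137114425, with scores of 114 and 73 (94.5 and 88.9).

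Hes1 had the tightest cluster, with 11 of 14 distal shared peaks within 10 kb. The strongest lay 1109 bp upstream at chr16:30064156-30064305, with scores of 122 and 84 (95.8 and 92.4), and one lay 5191 bp downstream with 109 and 69. At Hes5 the median score percentiles over the 8 distal shared peaks were 93.0 and 84.9, and 2 of these peaks lay within 10 kb. The printed Hes5 peak 14372 bp upstream scored 121 and 70 (95.7 and 87.7), and one 2512 bp upstream, at chr4:154958336-154958485, scored 117 and 71. Of the 7 peaks of Hes6, 5 lay inside the neighbouring Per2 and Ilkap transcripts, and the strongest, 1049 bp upstream at chr1:91414196-91414345, scored 114 and 77 (94.5 and 90.3). Hey1 had 2, the stronger of them by mean score percentile over its own exon 2525 bp downstream, at chr3:8664656-8664805, with 91 and 78 (87.4 and 90.6). Over all 85 the median score percentiles were 85.1 in replicate 1 and 67.5 in replicate 2, against 73.6 and 55.1 over all 81031 distal shared peaks. Receptor peaks had medians of 85.5 and 64.9, ligand peaks 81.8 and 67.5, and target peaks 87.4 and 74.5.

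The line between promoter and distal peaks depends on the annotation. The full GENCODE set lists further start sites of the same genes, and 8 of the 85 distal shared peaks lie within 1 kb of one. These include the strongest distal peaks of Dll1 (199 bp from a start at 15376872), Dll3 (230 bp from 28294481), Hes1 (153 bp from 30064384) and Hes6 (233 bp from 91414038). Counted from all start sites of that set, a choice made after seeing the data, Hes1 had 11 distal shared peaks, Notch1 19 and Dll3 6, and the median over members was 6.5. Neighbouring genes also count some of the same peaks. Protein-coding genes with a start site within 50 kb were Ephx3 for Notch3, Fam120b for Dll1, Pank4 and Tnfrsf14 for Hes5, Ilkap, Per2 and Erfe for Hes6, and Timm50, Selenov, Eid2b, Eid2, Supt5 and Rps16 for Dll3. Notch1, Notch2, Jag1, Hes1 and Hey1 had none. Across all 85 peaks, 44 lay nearest to the member's own start site, and no such share was taken over other genes.

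The replicates gave different lists around the members. Of the members' distal peaks, 53.5% in replicate 1 (85 of 159, Wilson 95% interval 45.7 to 61.04) and 85.9% in replicate 2 (85 of 99, 77.7 to 91.4) were shared, against 37.2% and 76.5% of all distal peaks. Over the distal peaks within 50 kb of any protein-coding gene, which is the closer background, the shares were 43.0% and 76.9%. The intervals cover counting error only. Each share counts its own replicate's peaks, so the 2 counts of 85 do not pair off (14 and 17 at Hes1, 8 and 6 at Dll3). In score percentile bands 0 to 25, 25 to 50, 50 to 75 and 75 to 100, no steady excess was seen. The members' shares were 8.33, 29.4, 34.0 and 87.9% in replicate 1, against 7.48, 18.6, 49.0 and 90.8% of all distal peaks. In replicate 2 they were 57.1, 54.5, 97.4 and 100%, against 40.6, 81.7, 94.0 and 98.9%. With replicate 1 cut to its 148804 highest-scoring peaks, as many as replicate 2 has, 80 of 130 member peaks (61.5%) were shared, against 61.2% of all distal peaks kept, so the share around the members was then near the background. At promoters 87.5% of the members' peaks in replicate 1 (21 of 24, 69.0 to 95.7) and 73.3% in replicate 2 (22 of 30, 55.6 to 85.8) were shared, and the shares over all promoter peaks, 66.9% and 78.7%, lay below the first interval and inside the second.

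Jag1 and Hes1 lay at opposite ends. Jag1 had 4.6 distal peaks in replicate 1 for each one in replicate 2, a ratio reached by 0.243% of the 12738 genes with at least 4 distal peaks in replicate 2, whose median ratio was 1.5. All 5 replicate 2 peaks of Jag1 were shared, and the 18 of replicate 1 without a partner had scores from 31 to 84, with a median of 51. Of these 18, 16 lay downstream of the start site and 12 inside the Jag1 transcript. With equal numbers of peaks the counts were 17 and 5, a ratio of 3.4. Hes1 had 21 and 22 peaks, a ratio of 0.955 that 10.1% of those genes matched or undercut, and 18 and 22 with equal numbers. Its 5 peaks found in replicate 2 alone scored from 21 to 29. Strong peaks of replicate 1 without a partner were found at Hes5, 8112 and 12172 bp upstream with scores of 108 and 98, and at Notch1, 3151 bp downstream with 113. The Notch1 site lay inside a replicate 2 hotspot at the cap of 100 (chr2:26500448-26501405). It was thus enriched in replicate 2 and lacked only an overlapping peak.

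The longer RBPJ sequences stood in a larger share of the members' open sites than of all open sites. In all, 10 motifs were searched, on both strands, and each longer RBPJ form lies within the shorter ones. In the 85 distal shared peaks, TGGGAA was found in 20 (23.5%, Wilson 95% interval 15.8 to 33.6, against 16.2% of all distal shared peaks), GTGGGAA in 9 (10.6%, 5.67 to 18.9, against 3.59%) and CGTGGGAA in 5 (5.88%, 2.54 to 13.04, against 0.354%). In the 21 promoter peaks they were found in 6 (28.6%, 13.8 to 49.96, against 12.1%), 5 (23.8%, 10.6 to 45.1, against 3.02%) and 2 (9.52%, 2.65 to 28.9, against 0.551%). The looser TGNGAA stood in 8 promoter peaks (38.1%, against 24.1%) and 37 distal peaks (43.5%, against 35.9%). For TGGGAA in distal peaks the interval's lower end, 15.8%, lies just under the share over all peaks. The intervals count each peak as independent, though many of the peaks lie at the same gene, so they may be too narrow. A match describes letters, not binding.

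The 14 peaks with GTGGGAA were unevenly spread over the genes. Hes1 had 4, of which 3 were promoter peaks, among them the printed ones 109 bp upstream and 991 bp downstream, and 1 was a distal peak 3511 bp downstream. Hes5 had 3, in its promoter peak and 2512 and 14372 bp upstream. Hes6 had 2, one 771 bp inside the gene and one 23289 bp upstream in Per2. Notch1 had 2, the printed one 1391 bp downstream and one 12649 bp upstream that overlaps an untranslated leader and is not printed. Notch3 had 1, 4561 bp downstream, Dll1 had 1, 5055 bp upstream, and Hey1 had 1 distal peak. Notch2, Dll3 and Jag1 had none. The targets thus held 10 of the 14, on 40 of the 106 shared peaks.

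In the Hes1 promoter peak, TGGGAA and TTCACA face each other with 16 bases between them, at chr16:30065260-30065287, and the pair ends 53 bp before the start site. Another TGGGAA lies inside the spacer. Such facing pairs, TGNGAA followed after 13 to 19 bases by TTCNCA, are known as a form on which RBPJ complexes can sit side by side. The pair was found in 1 of the 21 member promoter peaks (4.76%, against 0.111% of all promoter shared peaks) and in 0 of 85 distal ones, which allows a share of up to 3.53% by the limit of 3 counts and 4.32% by the Wilson interval, against 0.197%. In the Hes5 promoter peak the printed TTCCCAC begins at the second base, so it lies close to the peak's edge.

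The counts of the longer forms moved with the exact position of the peak. In the replicate 2 peaks that overlap the 106 shared peaks, CGTGGGAA was found in 3 distal and 1 promoter peak, against 0.358% and 0.541% of all such replicate 2 peaks. GTGGGAA was found in 7 and 4, against 3.50% and 2.99%, TGGGAA in 19 and 6, against 16.1% and 12.3%, and the Hes1 pair again. The members' distal peaks were richer in G and C than others, with a median of 54% against 50%, and had a median of 3 CpG against 2. Among the 34394 distal shared peaks with 50.7 to 62% G and C, the middle range of the members', CGTGGGAA stood in 0.471% and GTGGGAA in 4.38%, against the members' 5.88% and 10.6%.

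Of the sites that Hes and Hey proteins bind, CACGCG, the C-site, stood in 6 of 21 promoter peaks (28.6%, 13.8 to 49.96, against 10% of all) and 5 of 85 distal peaks (5.88%, 2.54 to 13.04, against 1.83%). CACGTG, the E-box, stood in 1 and 5 (4.76% and 5.88%, against 5.63% and 2.98%), and CACNAG, the N-box, in 5 and 23 (23.8% and 27.1%, against 25% and 34.4%). The E-boxes CAGCTG and CAGATG, which proneural proteins bind, stood in 12 and 10 of the distal peaks (14.1% and 11.8%, against 16.6% and 17.7%) and in 3 and 2 of the promoter peaks (14.3% and 9.52%, against 10.2% and 7.62%). The members' intervals for the E-boxes and the N-box included the shares over all peaks, in promoters and in distal peaks, and those for CACGCG did not. CACGCG holds CpG, and among the 38181 distal shared peaks with at least 3 CpG it stood in 3.75%, inside the members' distal interval. The members' promoter peaks also held more CpG, with a median of 14 against 10 over all promoter shared peaks. No share at like CpG was taken for promoter peaks, for CACGCG or for the RBPJ forms, so the part of CpG there was not tested.

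**Figure D5:**
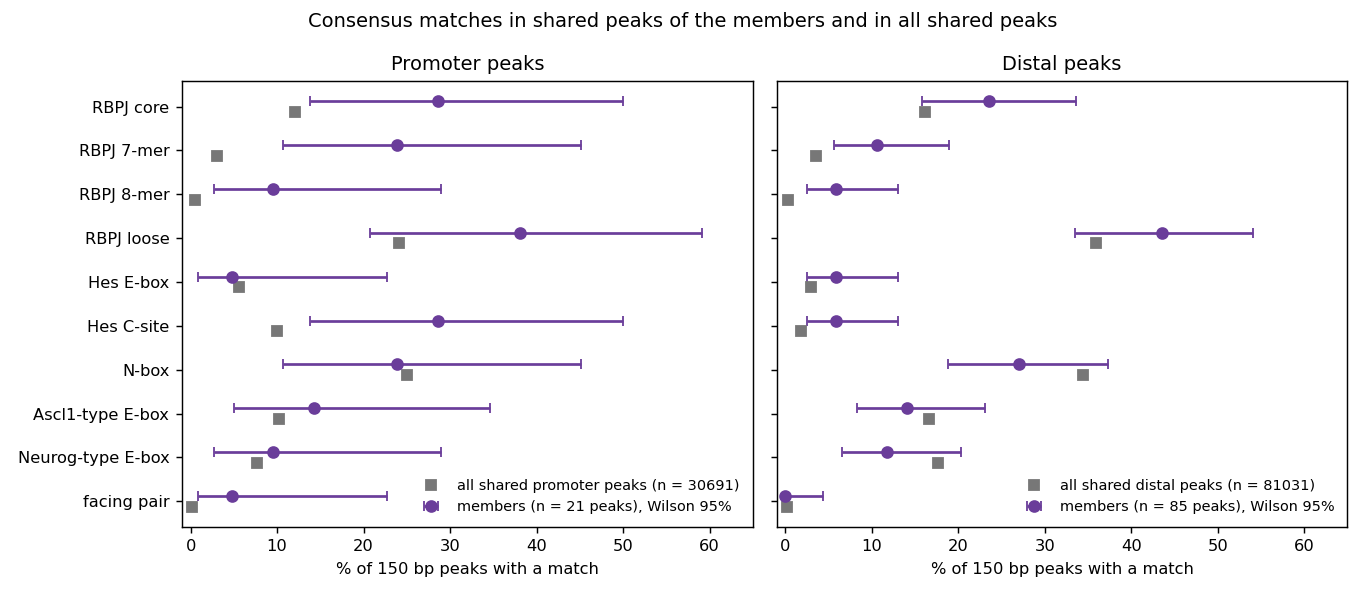
Percentage of 150 bp shared peaks that hold each consensus, for the members (points with Wilson 95% intervals, 21 promoter and 85 distal peaks) and for all shared peaks (squares). The RBPJ core is TGGGAA, the 7-mer and 8-mer are its longer forms, and the loose form is TGNGAA. The members' intervals lie above the squares for GTGGGAA and CGTGGGAA in both panels and include them for the E-boxes and the N-box. They count peaks of the same gene as independent and may be too narrow.

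The wider pathway was almost as open at its start sites as the members. Of 55 other pathway genes, 52 had a shared promoter peak (94.5%, against 64.6% of all genes), and they had a median of 6 distal shared peaks. All 13 genes that process ligands and receptors had one, among them Mib1, which ubiquitinates ligands, and Adam10, which cuts the receptor. So did all 5 glycosylation genes, all 8 of the nuclear complex, all 10 modulators and all 6 proneural genes. Of the further receptors and ligands 5 of 7 did, and of the further Hes and Hey genes 5 of 6. The exceptions were Notch4, the receptor of blood vessel walls, with 0 promoter peaks in either library, Dll4, the vascular ligand, with 2 peaks in replicate 1 and 1 in replicate 2 that did not overlap, and Heyl, with 1 and 0. Notch4 still had 6 distal shared peaks and Dll4 9. High counts of distal shared peaks were found at Maml3, a Mastermind co-activator, with 21, and Atoh1, the proneural gene of the rhombic lip, with 15. The fewest were at Snw1 and Itch, with 0, and genes with 1 included Mib1, Mib2, Adam10 and Adam17. By group the median ran from 3 for the processing and for the glycosylation genes to 9 for the nuclear complex and 10 for the proneural genes.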

How the data were processed

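DNase-seq peaks and hotspots of 2 libraries from embryonic mouse hindbrain were used. The authors deposited, for each library, peaks with a score and hotspots with a −log10 q-value, each list from that replicate's own filtered mm10 alignments, per the file headers. The meaning and scaling of the deposited score, the aligner, the peak caller and the thresholds were not given in the sources used. Sequencing depth is unknown because no read counts were among the values, and precision is given as Wilson intervals over peaks. Peaks off the assembled chromosomes were left out, and no peak passed the end of a GRCm38 chromosome. Peaks were assigned by midpoint to start sites of GENCODE M21 basic transcripts (python 3.11.15, pandas 2.3.3, numpy 2.4.6, scipy 1.17.1), and sequence came from GRCm38.p6, the assembly of the files. Scripts were tested on simulated data.

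The 10 members, the 55 further pathway genes, the markers and the motifs were chosen with earlier results of these data known, so no p-value is given. The main counts stand beside the same count over all genes or peaks. Others have no such background, among them the placement of distal peaks, their nearest and further start sites, and the place of the Jag1 peaks without a partner. Named were all members, pathway genes without a shared promoter peak and the 3 with the most and the fewest distal shared peaks (ties included), and each member's strongest shared peaks and every shared peak with GTGGGAA or a facing pair. Some items under this rule are not reported here. Alternatives were other windows, overlap rules, score limits, start sites, consensus forms and single libraries. Promoter sequences credited to RefSeq (GRCm38.p6) were searched for 8 members, and Hes1 and Hey1 had no entry there.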

Additional observations from a re-analysis of the deposited data

How the results depend on the processing

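The counts of members with a shared promoter peak (9 or 10 under every alternative run) and with a promoter hotspot in both libraries (8 to 10), and of pathway genes with a shared promoter peak (48 to 54, against 52), stayed within 1.5 times their values. The order of ligands (8) and targets (7.5) was not stable: the medians were 7 and 8 without replicate 1, 11 and 12.5 with 100 kb, 5 and 6.5 with scores at or above the library median, and 4 and 6.5 with shared hotspots. Counts of distal peaks moved with the window and the library. With 20 kb the median per member was 4.5 and the total 51, with medians of 6 for receptors, 4 for ligands and 4 for targets, and with 100 kb the median was 13.5, the total 136 and the targets' median 12.5. Leaving out each library in turn gave a median of 8 to 14, a total of 99 to 159, and medians of 11 to 20 for receptors, 7 to 13 for ligands and 8 to 12.5 for targets. Where only peaks whose nearest start site is the member's were counted, the median was 3.5, with 5 for receptors, 4 for ligands and 3 for targets. With scores at or above the library median, receptors had 7 and ligands 5, and with shared hotspots ligands had 4. Receptors had the highest median of the 3 roles in each of these settings. The share of member distal peaks found in both libraries was 61.5% in replicate 1 with equal numbers of peaks, and in replicate 2 76.8% with an overlap of at least 0.5 of each peak and 97.1% with scores at or above the median. TGGGAA in 26 member peaks became 14 with GTGGGAA, 7 with CGTGGGAA and 45 with TGNGAA. The cause of these shifts was not tested beyond what each setting changes by construction. No paired analysis was possible because there is 1 group. With 2 libraries and no counts, the depth cannot be used to weigh single peaks.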

Other observations

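Some peaks of replicate 1 without a partner in replicate 2 stood among the strongest of their gene. Upstream of Hes5, 3 such peaks 8112, 11112 and 12172 bp from the start site scored 108, 88 and 98, beside shared peaks 12492 and 14372 bp upstream with replicate 1 scores of 116 and 121. Others were 1 peak 15313 bp downstream of Jag1 with 84 and 1 peak 1405 bp downstream of Hey1 with 80. Their absence from replicate 2 was not examined further.

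The RefSeq promoter of Hes5 holds GTGGGAA near both ends of the deposited peak. One match begins at chr4:154960697, inside the peak, and another spans chr4:154960840-154960846, which crosses the end of the peak at 154960845 and so was not counted there. Of all 32851 RefSeq promoters, 6.38% hold GTGGGAA, and of the 10 entries for 8 members only that of Hes5 did. TGGGAA also stood in 1 of the 10, that of Hes5, against 25.6% of all. TGNGAA stood in 3, against 50.7%, and CGTGGGAA in 0, against 0.734%. In these promoters the members' shares of TGGGAA and TGNGAA were thus below those over all, unlike in the shared promoter peaks. Hes1 and Hey1 are not among the entries.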
